A study of Homo sapiens with 54 samples.

Results

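The genes described here are 45 genes of DNA replication and of the step from G1 into S phase, of 18417 genes measured by a probe set with 1 gene symbol. Each gene was read from the probe set that names it alone, and from the one with the highest mean where there were several, so that 45 of 19460 probe sets were used. Their mRNA was followed in 9 human cell lines given calcitriol, which is the active vitamin D hormone, for 8 h or 36 h and in the same lines at 0 h with no agent, with 2 arrays for each line and time and 54 arrays in all. The lines were AG09319 and AG09309 (fibroblasts), HepG2 (hepatoma), HL60 (promyelocytic leukaemia), K562 (chronic myeloid leukaemia) and the lymphoblastoid lines GM07019, GM07348, GM10854 and GM12878, which are B cells transformed with Epstein-Barr virus. No culture without calcitriol was measured at 8 h or 36 h here, so that calcitriol and time in culture cannot be told apart in any change below, and the sources used here give no dose. The labels number the 2 arrays of a group but do not say that they came from separate cultures, so that p-values for single lines, and for differences between them, cover the spread between arrays alone, which may be technical. Those for means over lines and for the 0 h levels cover the spread between lines.

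Before S phase, the origin recognition complex (ORC), CDC6 and CDT1 load the ring of MCM2 to MCM7 onto origins, and CDC45 and the GINS complex turn that ring into the active helicase. Primase and polymerase alpha start each strand, the clamp PCNA is loaded by replication factor C, and ribonucleotide reductase and thymidylate synthase supply the nucleotides. Many of these genes are known targets of E2F transcription factors, which the retinoblastoma protein holds in check until cyclin E and CDK2 act in late G1. Cells that leave the cycle carry little of these mRNAs, and calcitriol is known to slow the growth of several cell types. In bulk RNA, fewer cycling cells and less mRNA in each cycling cell cannot be told apart.

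The promoters are shown for the members with the largest mean change at 36 h among those whose window, of 250 bases before to 50 bases after the RefSeq start, held an E2F motif. The motifs searched were TTTCCCGC, TTTCGCGC, TTTGCCGC and TTTGGCGC on either strand. None of these 8-letter motifs contains another, and the sequences are RefSeq's on GRCh38.p14, read 5′ to 3′ on the gene's strand with the motif in capitals. DTL is the substrate receptor of the ubiquitin ligase that destroys CDT1 in S phase, and its window is chr1:212035498-212035797 on the plus strand, with the motif beginning at base -8 from the start. CLSPN (claspin, an adaptor of the replication checkpoint) lies at chr1:35769929-35770228 on the minus strand, with the motif at base -5. CDC6 lies at chr17:40287629-40287928 on the plus strand, with the motif at base 7. POLE2, the second subunit of DNA polymerase epsilon, lies at chr14:49688165-49688464 on the minus strand, with the motif at base -5.
DTL: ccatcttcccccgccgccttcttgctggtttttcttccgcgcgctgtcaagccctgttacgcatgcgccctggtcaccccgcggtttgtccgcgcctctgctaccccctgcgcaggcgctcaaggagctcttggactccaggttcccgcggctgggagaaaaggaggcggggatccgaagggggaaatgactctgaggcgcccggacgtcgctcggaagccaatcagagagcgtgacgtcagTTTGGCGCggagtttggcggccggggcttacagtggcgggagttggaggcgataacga
CLSPN: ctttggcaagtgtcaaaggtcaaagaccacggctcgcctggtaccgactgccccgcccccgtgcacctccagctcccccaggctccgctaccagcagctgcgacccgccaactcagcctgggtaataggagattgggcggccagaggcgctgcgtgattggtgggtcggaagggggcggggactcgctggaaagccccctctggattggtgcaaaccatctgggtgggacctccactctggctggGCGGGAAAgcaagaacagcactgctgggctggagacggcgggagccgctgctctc
CDC6: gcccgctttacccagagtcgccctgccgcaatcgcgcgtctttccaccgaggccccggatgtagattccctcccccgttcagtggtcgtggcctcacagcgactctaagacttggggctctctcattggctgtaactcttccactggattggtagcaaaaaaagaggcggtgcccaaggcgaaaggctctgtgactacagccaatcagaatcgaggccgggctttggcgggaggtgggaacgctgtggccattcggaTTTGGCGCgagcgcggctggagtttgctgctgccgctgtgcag
POLE2: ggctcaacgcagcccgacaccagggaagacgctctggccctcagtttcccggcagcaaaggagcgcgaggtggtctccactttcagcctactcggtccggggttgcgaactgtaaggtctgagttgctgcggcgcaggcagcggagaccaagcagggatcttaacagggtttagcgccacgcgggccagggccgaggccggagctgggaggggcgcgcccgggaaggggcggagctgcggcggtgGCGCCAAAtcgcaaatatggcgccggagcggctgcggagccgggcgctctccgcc
Windows were found for 40 of the 45 genes, and 23 of these 40 (57.5%) held a motif, against 3.99% of the 27305 genes of the table. Counted by window, the share was 48% of the members' windows and 3.31% of all 35116 windows. A match of letters is a description and not a binding site.

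The lines were checked against their defining markers. Both fibroblast lines carried COL1A1 (11.63 in AG09309 and 11.62 in AG09319 at 0 h, on the log2 scale, against 5.95 to 6.56 in the other lines), and HepG2 carried ALB at 10.95, HL60 carried MPO at 11.7 and K562 carried HBE1 at 11.58. The 0 h arrays of AG09309 went against their label in one respect. They carried the B cell marker MS4A1 at 8.15 and 8.07, whereas the later arrays of that line had 3.38 and 3.29 at 8 h and 3.10 and 2.85 at 36 h. The log2 of the summed signal of the 4 measured B cell markers (MS4A1, CD79A, CD79B and CR2) was 8.64 to 8.67 at 0 h, 6.32 to 6.40 at 8 h and 6.09 to 6.22 at 36 h in AG09309, between 9.99 and 11.06 in lymphoblastoid arrays and between 6.19 and 7.19 in those of the other 4 lines. Counts of changes from 0 h in AG09309 are therefore followed by those of 36 h against 8 h, which use none of those arrays. Besides this, 1 array was marked as standing apart in each of the 3 groups of lowest correlation between their 2 arrays. These 3 arrays were AG09319 at 8 h replicate 2 (correlation with its partner 0.8972), HepG2 at 0 h replicate 2 (0.9538) and K562 at 36 h replicate 1 (0.9701). The number 3 was set and not found by a test. The next lowest correlation was 0.9787 (K562 at 0 h), and the median over groups was 0.9871. Leaving out arrays changes the spread estimate that the single lines share. Counts below with arrays left out are given without the share of all probe sets called.

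At 36 h against 0 h, some or most of the 45 genes fell in 3 lines, and no gene passed the test in the other 6. In AG09319, 44 of the 45 fell, with a median log2 change of -1.395 and E2F2 the one gene not called. In HepG2, 18 fell, with a median of -0.70, and in AG09309, 16 fell, with a median of -0.58. None of the 45 was called in AG09309 at 36 h against 8 h. Genes were called at an adjusted p under 0.05 in 1 limma fit of all 27 groups, adjusted over all 19460 probe sets, in which 2.71% of probe sets were called lower in AG09319, 0.797% in HepG2 and 2.26% in AG09309. None of the 45 genes was called higher in any line, where 1.78%, 1.05% and 2.65% of probe sets were called higher in AG09319, HepG2 and AG09309.

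**Figure D1:**
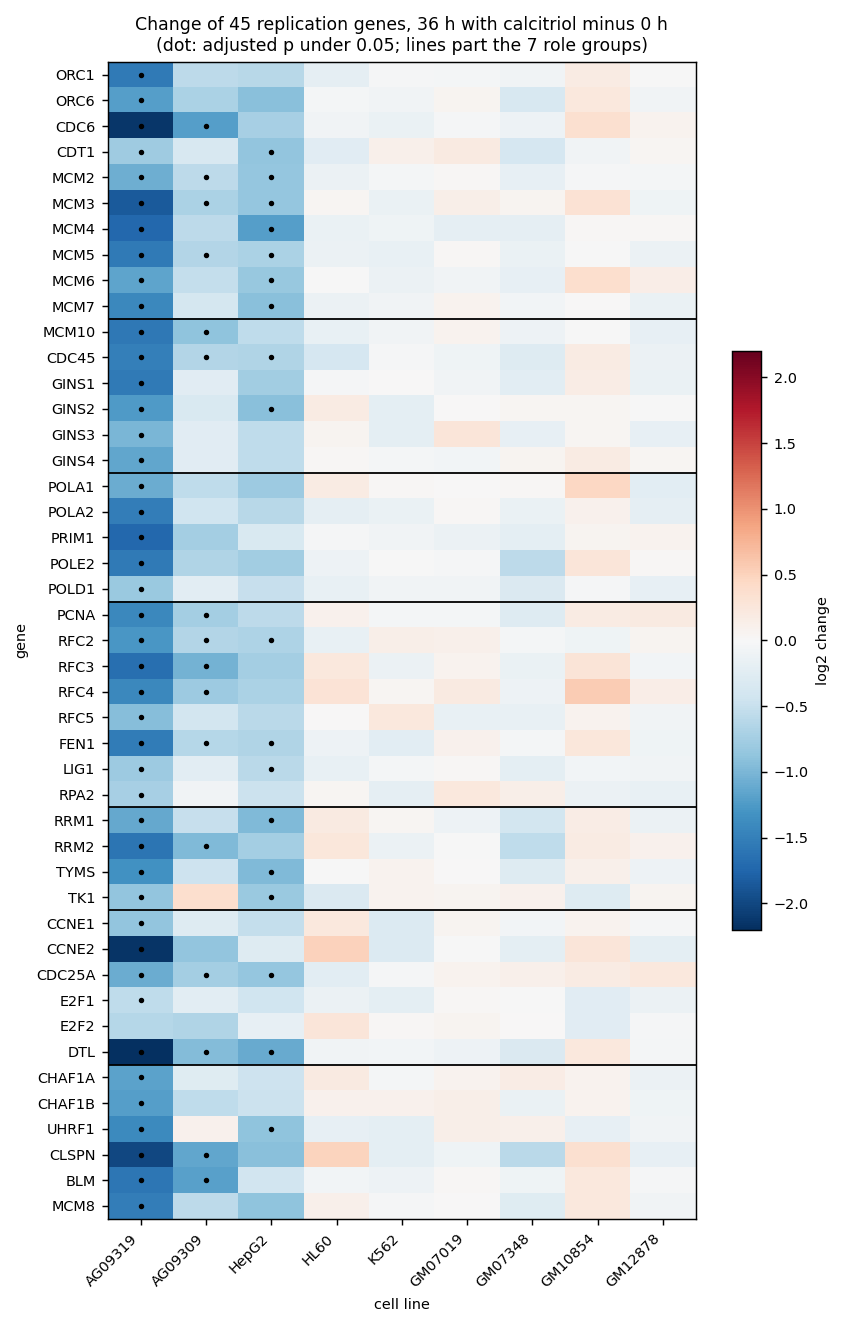
Log2 change at 36 h minus 0 h of each of the 45 genes (rows, in 7 role groups) in each of the 9 cell lines (columns), with a dot where the adjusted p was under 0.05. Dots stand in the columns of AG09319 (44), HepG2 (18) and AG09309 (16) and nowhere else.

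Of the 45 genes, 8 fell in all 3 lines: MCM2, MCM3 and MCM5 of the helicase ring, the helicase activator CDC45, the clamp loader subunit RFC2, the flap endonuclease FEN1, the CDK2-activating phosphatase CDC25A, and DTL. A further 18 fell in 2 of these lines and 18 in 1. The calls in AG09309 rest on its 0 h arrays that carried B cell markers. Against 8 h none of the 45 was called in that line. The share of all probe sets that fell in several lines is not given here. The arrays separated in the same way, since both 36 h arrays lay below both 0 h arrays for 45 of 45 genes in AG09319, 43 in HepG2 and 40 in AG09309. Over all probe sets that share was 21.3% in AG09319, 16.5% in HepG2 and 23.3% in AG09309.

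**Figure D2:**
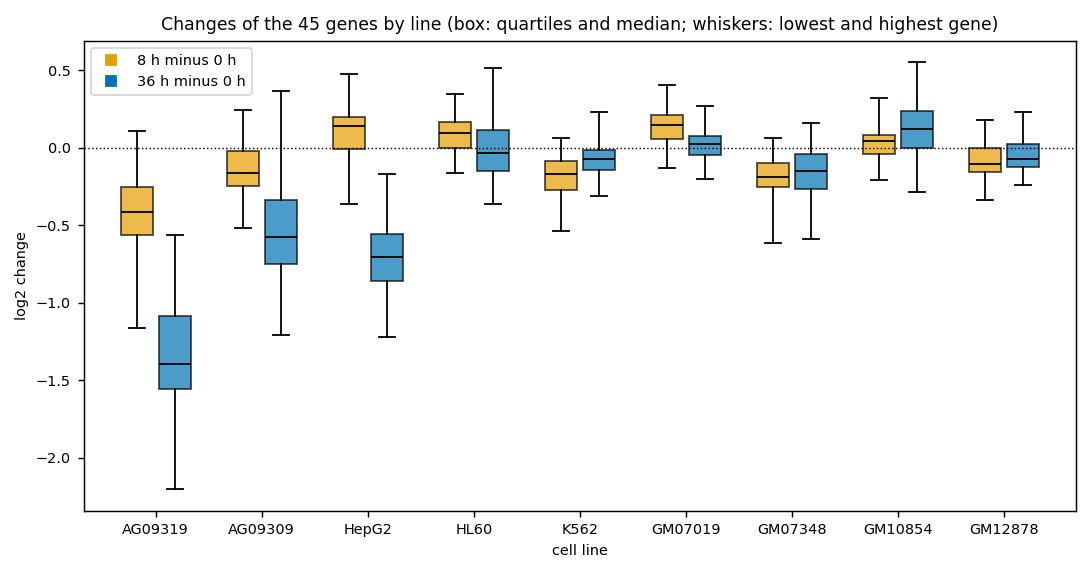
Log2 changes of the 45 genes at 8 h minus 0 h and at 36 h minus 0 h in each of the 9 lines, with boxes for the quartiles and median over genes and whiskers to the lowest and highest gene. At 36 h all 45 genes lie below 0 in AG09319 and HepG2 and 43 do in AG09309, while the boxes of the other lines span or lie close to 0.

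In AG09319 the licensing genes fell together, with 10 of 10 called and changes between -2.13 and -0.79. CDC6, the ATPase that recruits the MCM ring to origins, had levels of 7.73 and 7.43 at 0 h, 7.51 and 6.13 at 8 h, and 5.33 and 5.56 at 36 h. Both 36 h arrays were far below both 0 h arrays, and the change of -2.13 ± 0.28 (SE, 2 arrays at each time) had an adjusted p of 1.79e-06 by limma. SEs and p-values of single lines rest on a spread estimated over all 27 groups, not on the arrays of that line alone. MCM4 had 8.17 and 7.88 at 0 h, 7.77 and 7.08 at 8 h, and 6.12 and 6.49 at 36 h (change -1.72 ± 0.19, adjusted p 1.11e-07). MCM3 had 7.21 and 7.13 at 0 h, 7.09 and 6.43 at 8 h, and 5.13 and 5.53 at 36 h (change -1.845 ± 0.18, adjusted p 8.73e-09). In both genes the 0 h and 36 h arrays were separated by over 1 log2 unit. MCM5 had 8.09 and 7.97 at 0 h, 7.71 and 7.51 at 8 h, and 6.47 and 6.48 at 36 h, with the smallest adjusted p of the 45 genes (change -1.555 ± 0.15, adjusted p 3.17e-09). MCM7 had 8.36 and 8.15 at 0 h, 7.88 and 7.58 at 8 h, and 6.85 and 6.82 at 36 h. Its change was -1.42 ± 0.15 (adjusted p 3.54e-08), and like MCM5 it was lower at 36 h than in any earlier array. MCM6 had 8.02 and 7.69 at 0 h, 7.77 and 6.84 at 8 h, and 6.67 and 6.71 at 36 h (change -1.17 ± 0.23). MCM2 had 7.62 and 7.57 at 0 h, 7.30 and 7.05 at 8 h, and 6.50 and 6.55 at 36 h (change -1.07 ± 0.16). All 6 subunits of the ring were thus lower in every 36 h array than in every 0 h array. ORC1 (-1.55), ORC6 (-1.22) and CDT1 (-0.79) fell as well.

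The 6 genes of helicase activation all fell in AG09319, with changes between -1.58 and -0.997. MCM10, which helps the loaded helicase to fire, had 6.84 and 6.56 at 0 h, 6.74 and 6.26 at 8 h, and 5.05 and 5.19 at 36 h (change -1.58 ± 0.17, adjusted p 4.25e-08). CDC45 had 6.72 and 6.88 at 0 h, 6.6 and 6.18 at 8 h, and 5.33 and 5.27 at 36 h (change -1.50 ± 0.16, adjusted p 3.24e-08). For both genes the 36 h arrays lay below every 0 h and 8 h array, and the 4 GINS genes had changes between -1.56 (GINS1) and -0.997 (GINS3).

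All 5 polymerase and primase genes fell in AG09319. PRIM1, the catalytic subunit of primase, had 7.12 and 7.03 at 0 h, 7.14 and 6.26 at 8 h, and 5.35 and 5.34 at 36 h (change -1.73 ± 0.23, adjusted p 2.29e-06). POLE2, the promoter of which is shown above, had 5.75 and 5.37 at 0 h, 5.27 and 4.53 at 8 h, and 4.02 and 4.0 at 36 h (change -1.55 ± 0.30, adjusted p 0.000541). Again neither gene overlapped between 36 h and 0 h. POLA2 and POLA1, the B and catalytic subunits of polymerase alpha, changed by -1.53 and -1.10, and POLD1, the catalytic subunit of polymerase delta, by -0.82.

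The clamp, its loader and the lagging-strand enzymes fell as a group of 8 of 8 in AG09319. PCNA had 8.70 and 8.58 at 0 h, 8.51 and 7.53 at 8 h, and 7.12 and 7.34 at 36 h (change -1.41 ± 0.21, adjusted p 1.14e-05). RFC3 had 7.87 and 7.61 at 0 h, 7.49 and 6.40 at 8 h, and 6.01 and 6.16 at 36 h (change -1.66 ± 0.22, adjusted p 1.81e-06). FEN1 had 7.35 and 7.34 at 0 h, 7.33 and 7.02 at 8 h, and 5.50 and 6.10 at 36 h (change -1.54 ± 0.16, adjusted p 3.49e-08). For these 3 genes the 8 h array of replicate 1 was close to the 0 h arrays and that of replicate 2 lay below them. The changes of the others in this group were between -1.42 (RFC4) and -0.73 (RPA2, the second subunit of replication protein A), with the DNA ligase LIG1 at -0.80.

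The nucleotide supply genes fell 4 of 4 in AG09319. RRM2, the small subunit of ribonucleotide reductase, had 8.22 and 7.99 at 0 h, 8.04 and 7.30 at 8 h, and 6.42 and 6.59 at 36 h (change -1.60 ± 0.21, adjusted p 2.39e-06). TYMS, thymidylate synthase, had 9.57 and 9.49 at 0 h, 9.32 and 8.34 at 8 h, and 8.13 and 8.25 at 36 h (change -1.34 ± 0.22, adjusted p 4.93e-05). The 36 h arrays of both genes lay below the 0 h arrays without overlap. The large reductase subunit RRM1 changed by -1.12 and the thymidine kinase TK1 by -0.87.

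The G1/S control genes in AG09319 spread most widely, with 5 of 6 called and changes between -2.202 and -0.57. DTL had 7.53 and 7.22 at 0 h, 7.32 and 6.07 at 8 h, and 5.06 and 5.28 at 36 h, with the largest change of the 45 genes (-2.202 ± 0.25, adjusted p 1.17e-07). CCNE2, cyclin E2, had 6.95 and 6.61 at 0 h, 6.95 and 5.54 at 8 h, and 4.25 and 4.98 at 36 h (change -2.16 ± 0.30, adjusted p 4.9e-06). For both genes replicate 1 at 8 h lay within the 0 h arrays and replicate 2 well below them. E2F1 had 6.89 and 6.62 at 0 h, 6.55 and 6.90 at 8 h, and 6.44 and 5.94 at 36 h, and its change was the smallest of those called (-0.57 ± 0.16, adjusted p 0.0314). CDC25A fell by 1.09 and cyclin E1 (CCNE1) by 0.86, whereas E2F2 had a change of -0.62 ± 0.20 with an adjusted p of 0.0807.

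**Figure D3:**
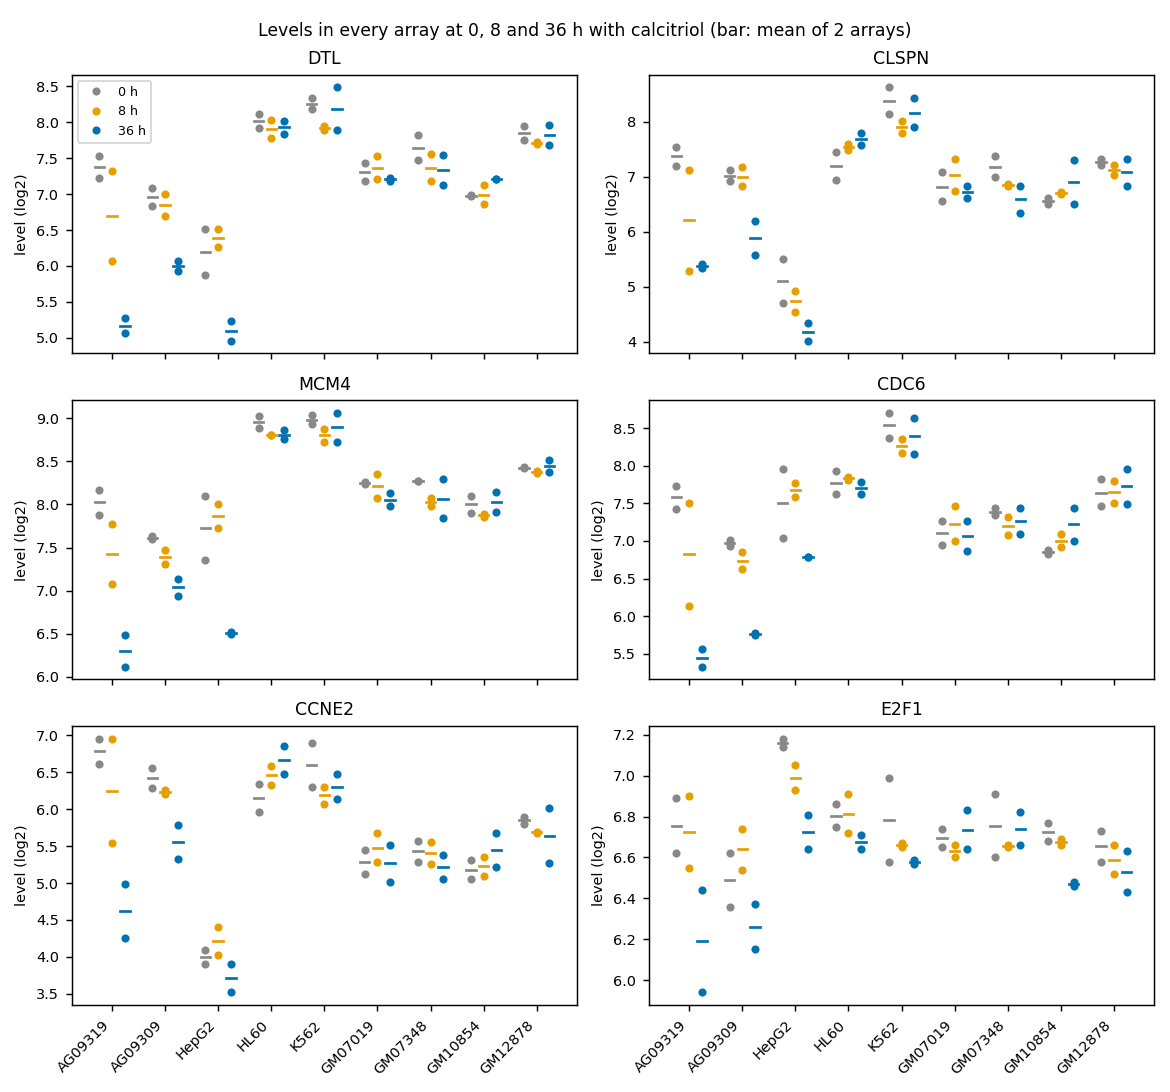
Log2 levels of DTL, CLSPN, MCM4, CDC6, CCNE2 and E2F1 in every array of the 9 lines at 0, 8 and 36 h, with a point for an array and a bar for the mean of 2. The 36 h points of AG09319 lie below its 0 h points in all 6 panels. In HepG2 the same holds for 43 of the 45 genes, DTL and MCM4 among them. It does not hold there for CCNE2, which is near 4 at all times.

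Chromatin, checkpoint and repair genes fell 6 of 6 in AG09319. CLSPN had 7.55 and 7.20 at 0 h, 7.13 and 5.29 at 8 h, and 5.41 and 5.34 at 36 h (change -1.995 ± 0.35, adjusted p 0.000144). BLM, the helicase mutated in Bloom syndrome, had 5.98 and 5.43 at 0 h, 5.57 and 4.74 at 8 h, and 3.71 and 4.51 at 36 h (change -1.60 ± 0.26, adjusted p 5.7e-05). Neither gene overlapped between 36 h and 0 h. The helicase MCM8 changed by -1.52, the histone chaperone subunits CHAF1A and CHAF1B by -1.18 and -1.21, and UHRF1, which brings DNA methylation to replicated DNA, by -1.395. A second probe set of CLSPN also fell in AG09319 (-1.71), while a second, dimmer probe set of UHRF1 had 0.11 with an adjusted p of 0.948.

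The result in AG09319 held when any 1 of its arrays at 0 h or 36 h was left out, with 37 to 43 genes called, and its comparison of 36 h with 8 h, which uses no 0 h array, called 39 lower (7.26% of probe sets lower) with a median of -0.89, against -0.10 over all probe sets. Without the 8 h array that stood apart that median was -1.24. A limma fit of the 6 arrays of the line alone called 0 of the 45, with 44 at an unadjusted p under 0.05 against 4.71% of probe sets.

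In HepG2, 7 of 10 licensing genes and 3 of 4 nucleotide supply genes fell, which made 10 of the 18 genes called. MCM4 had 8.10 and 7.35 at 0 h, 7.73 and 8.01 at 8 h, and 6.50 and 6.52 at 36 h, with the largest change of the 45 (-1.22 ± 0.19, adjusted p 0.0002). DTL had 6.52 and 5.88 at 0 h, 6.27 and 6.52 at 8 h, and 5.23 and 4.96 at 36 h (change -1.10 ± 0.25, adjusted p 0.00952). In both genes the 8 h arrays lay among the 0 h arrays and the 36 h arrays below them. MCM7 (-0.93 ± 0.15, adjusted p 0.000259), TYMS (-0.98 ± 0.22, adjusted p 0.00737), RRM1 (-0.97 ± 0.23, adjusted p 0.0165) and UHRF1 (-0.89 ± 0.17, adjusted p 0.00145) also fell. The dimmer probe set of UHRF1 had -0.13 in HepG2 with an adjusted p of 0.914.

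In the other groups of HepG2 the called genes were 2 of 6 in helicase activation (CDC45 and GINS2), none of the 5 polymerase and primase genes, 3 of 8 of the clamp group (RFC2, FEN1 and LIG1), 2 of 6 in G1/S control (CDC25A and DTL) and 1 of 6 in chromatin and repair (UHRF1). CLSPN had -0.93 ± 0.35 (adjusted p 0.219), CDC6 -0.72 ± 0.28 (adjusted p 0.24), PCNA -0.57 ± 0.21 (adjusted p 0.199) and CCNE2 -0.28 ± 0.30 (adjusted p 0.842). CCNE2 had 3.90 and 4.09 at 0 h, 4.02 and 4.4 at 8 h, and 3.91 and 3.52 at 36 h in HepG2, its lowest levels at 0 h in any line, and its groups overlapped.

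The comparison of 36 h with 8 h in HepG2 uses no 0 h array, and it called 27 of the 45 lower (0.894% of probe sets lower) with a median of -0.82 and all 45 below 0. MCM4 changed by -1.36 ± 0.19 (adjusted p 3.6e-05) and DTL by -1.30 ± 0.25 there, and the helicase subunit gene GINS1, which was not called against 0 h (-0.77, adjusted p 0.119), fell by 1.25. Leaving out the 3 deviating arrays gave 36 genes against 0 h (median -0.931), and the count was 23 without HepG2 0 h replicate 2, 6 without HepG2 0 h replicate 1, 9 without HepG2 36 h replicate 1 and 2 without HepG2 36 h replicate 2. Without 1 array, the count against 8 h was 8 without HepG2 8 h replicate 2, 15 without HepG2 36 h replicate 1 and 8 without HepG2 36 h replicate 2, and MCM4 and MCM7 stayed called in every one of the comparisons against 0 h with 1 array left out. A limma fit of the 6 HepG2 arrays alone called 0 of the 45 against 0 h, with 39 at an unadjusted p under 0.05 against 7.95% of probe sets.

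In AG09309 the called genes were spread over 6 of the 7 role groups. They were CDC6, MCM2, MCM3 and MCM5 of licensing, MCM10 and CDC45 of helicase activation, PCNA, RFC2, RFC3, RFC4 and FEN1 of the clamp group, RRM2, CDC25A, DTL, CLSPN and BLM. CDC6 had 7.01 and 6.93 at 0 h, 6.62 and 6.85 at 8 h, and 5.78 and 5.75 at 36 h (change -1.21 ± 0.28, adjusted p 0.00546). MCM10 had 6.42 and 6.24 at 0 h, 6.02 and 6.13 at 8 h, and 5.28 and 5.61 at 36 h, with the smallest adjusted p of the 45 in this line (change -0.89 ± 0.17, adjusted p 0.000652). Both genes were lower in both 36 h arrays than in any earlier array. RFC3 fell by 1.04, BLM by 1.19 and RRM2 by 0.98. CLSPN fell by 1.14 on the probe set used, and its second probe set had -0.74 with an adjusted p of 0.0832, whereas TK1 had 0.36 ± 0.20 (adjusted p 0.403) and UHRF1 0.10 ± 0.17 (adjusted p 0.855).

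The B cell markers, which were higher in the 0 h arrays of AG09309 than in its later arrays, move with this comparison. Against 8 h, where the marker sum was 6.09 to 6.22 at 36 h and 6.32 to 6.40 at 8 h, the median of the 45 genes was -0.39 with 44 of them below 0, both 36 h arrays lay below both 8 h arrays for 35 genes (20.5% of all probe sets did so), and no gene was called by limma (0.38% of probe sets were called in either direction). An unadjusted p under 0.05 was found for 23 of the 45, against 9.78% of probe sets. The largest of these changes were CLSPN at -1.13 ± 0.35 (adjusted p 0.168), CDC6 at -0.97 ± 0.28 (adjusted p 0.128), RRM2 at -0.84 ± 0.21 (adjusted p 0.0651) and DTL at -0.84 ± 0.25 (adjusted p 0.153). The count against 0 h was 1 without AG09309 0 h replicate 1, 8 without AG09309 0 h replicate 2, 6 without AG09309 36 h replicate 1, 4 without AG09309 36 h replicate 2, 7 after centring each array on its median and 26 without the 3 deviating arrays, all of other lines. Without those 3 arrays 8 genes were called against 8 h, and 5 were after quantile normalization.

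**Figure D4:**
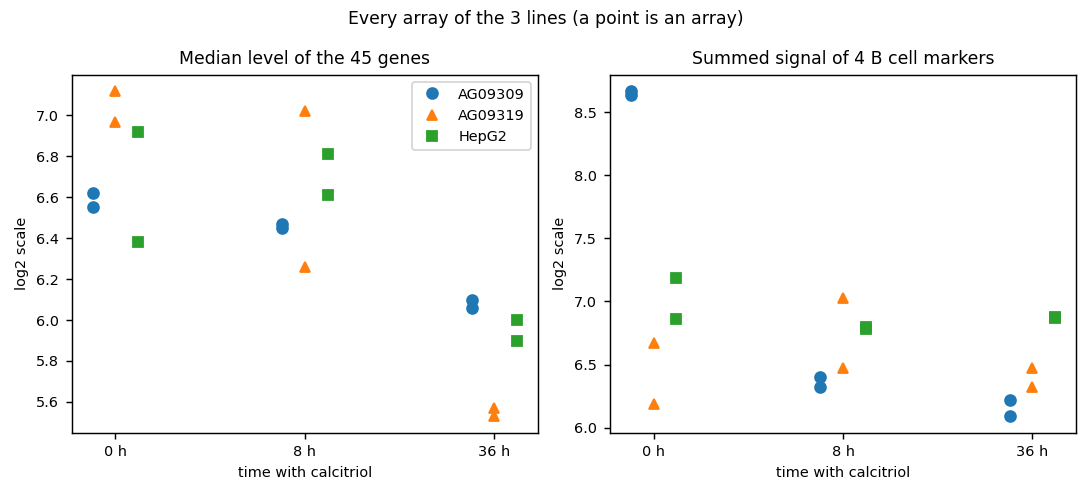
Median level of the 45 genes (left, log2) and log2 of the summed signal of 4 B cell markers (right) in every array of AG09309, AG09319 and HepG2 at 0, 8 and 36 h. The 36 h arrays have the lowest medians in each line (6.10 and 6.06 in AG09309, 5.53 and 5.57 in AG09319, 6.0 and 5.9 in HepG2), and the 0 h arrays of AG09309 alone have a marker sum over 8.

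From 0 h to 36 h the fall was larger in AG09319 than in the other fibroblast line for 13 genes, on AG09309 0 h arrays that carried B cell markers. Taken as the change in AG09309 minus that in AG09319, the difference had a median of 0.75 and was above 0 for 44 of the 45 genes, with 13 called higher by limma (1.11% of probe sets were). UHRF1 differed most (1.49 ± 0.23, adjusted p 6.3e-05): it had 7.04 and 7.04 at 36 h and 7.0 and 6.89 at 0 h in AG09309, against 6.41 and 6.34 at 36 h and 7.83 and 7.71 at 0 h in AG09319. TK1 had 7.41 and 7.84 at 36 h and 7.30 and 7.23 at 0 h in AG09309, against 7.37 and 7.63 at 36 h and 8.52 and 8.22 at 0 h in AG09319 (difference 1.23 ± 0.29, adjusted p 0.0105). For both genes the 36 h arrays lay below the 0 h arrays in AG09319 and above them in AG09309, and at 36 h the TK1 levels of the lines overlapped. Against 8 h, 44 of the 45 genes were below 0 in AG09309. TK1 alone was above 0 there (0.19), so that the value of UHRF1 was below 0. The other genes with a called difference were MCM7, MCM3, MCM5, MCM4, POLA2, FEN1, CDC45, GINS1, CHAF1A, GINS4 and DTL, from 0.85 (CDC45) to 1.31 (GINS1). For E2F2 the difference was -0.04. The count of 13 was 20 without the 3 arrays that stood apart, and leaving out 1 array at a time gave 6 and 5 (AG09309 0 h replicates 1 and 2), 7 and 5 (AG09309 36 h replicates 1 and 2), 3 and 8 (AG09319 0 h replicates 1 and 2), 3 (AG09319 36 h replicate 1) and 17 (AG09319 36 h replicate 2). MCM7 and UHRF1 stayed called in each. With the 8 h arrays in place of the 0 h arrays, an alternative chosen after seeing the data, the difference had a median of 0.53 and was above 0 for 42 genes, and limma called 3 of them higher, UHRF1, MCM5 and FEN1 (0.334% of probe sets were). The deviating AG09319 8 h array enters that comparison, and without the 3 arrays that stood apart the median was 0.848. TK1, MCM7, POLA2 and GINS4 were among the genes not called in the comparison with 8 h.

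Across the 45 genes, the changes at 36 h against 0 h in AG09309 and AG09319 had a Pearson r of 0.67 and a Spearman rho of 0.703. For HepG2 with AG09319 the values were 0.266 and 0.21, and for HepG2 with AG09309 they were 0.0136 and 0.0578. These are descriptions over genes that are not independent of each other, in lines that share no array. The changes in AG09309 rest on 0 h arrays that carried B cell markers, and correlations of changes from 8 h are not given here. Genes far from a common line were CCNE2, BLM, TK1 and UHRF1. CCNE2 changed by -2.16 in AG09319 and had -0.28 in HepG2. BLM fell in both fibroblast lines (-1.60 and -1.19) and had -0.42 in HepG2. TK1 and UHRF1 fell in AG09319 and HepG2 and had values above 0 in AG09309 against 0 h. Against 8 h, UHRF1 was below 0 in AG09309. Among genes with an E2F motif in the promoter window and among the 17 without one, the medians at 36 h were -1.395 and -1.289 in AG09319, -0.833 and -0.608 in HepG2 and -0.552 and -0.630 in AG09309, with no test.

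**Figure D5:**
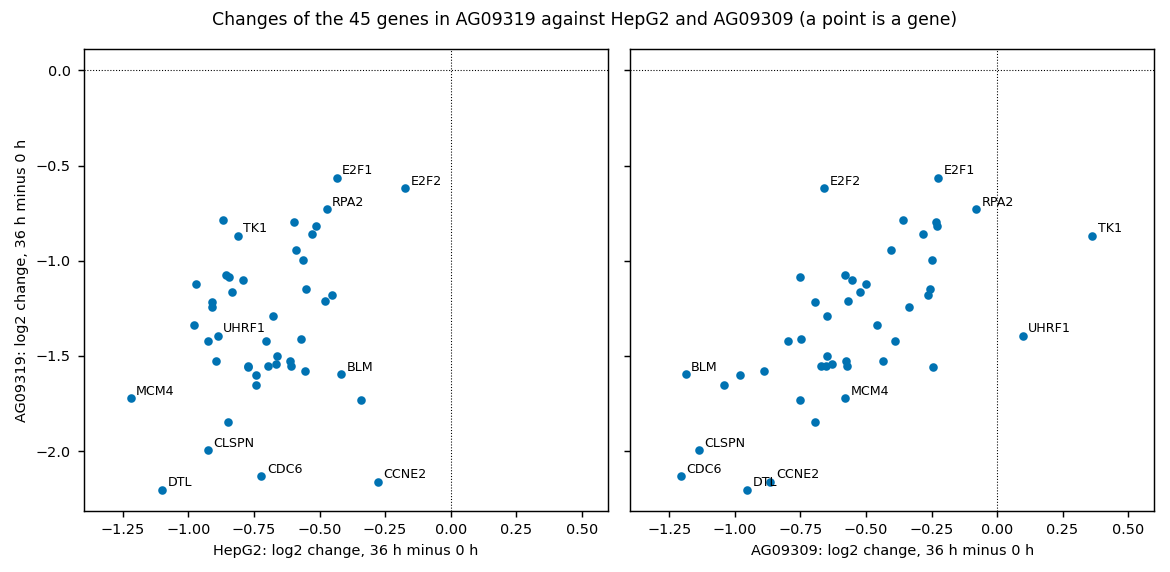
Log2 change at 36 h minus 0 h of the 45 genes in AG09319 (vertical axis) against HepG2 (left) and AG09309 (right), with a point for each gene and names at the genes discussed. In the right panel the points run together from E2F1 down to CDC6 with TK1 and UHRF1 to the right of 0, and in the left panel CCNE2 and BLM stand at small HepG2 changes. The 0 h arrays of AG09309 carried B cell markers.

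The leukaemia and lymphoblastoid lines had no called change in any of the 45 genes at 36 h against 0 h. In HL60, a line known to mature under calcitriol, the median was -0.03, with changes between -0.37 (CDC45) and 0.52 (CCNE2), where 0.868% of all probe sets were called by limma. CCNE2 had 5.96 and 6.34 at 0 h, 6.58 and 6.33 at 8 h, and 6.48 and 6.85 at 36 h, so that both 36 h arrays lay above the 0 h arrays without passing the test. DTL had 7.92 and 8.11 at 0 h, 8.03 and 7.78 at 8 h, and 8.02 and 7.84 at 36 h. The DTL arrays of all 3 times overlapped, and 1 of the 45 genes, CDC45, had an unadjusted p under 0.05 (7.23% of probe sets did). In K562 the median was -0.07, against 0.13 over all probe sets of that line, and 0 genes had an unadjusted p under 0.05 (8.18% of probe sets did), with 0.0411% of probe sets called. MCM4 in K562 had 9.04 and 8.93 at 0 h, 8.87 and 8.73 at 8 h, and 9.06 and 8.73 at 36 h, so the times overlapped. The K562 median was -0.255 without the 36 h array that stood apart, again with no gene called.

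The 4 lymphoblastoid lines had medians of 0.02 (GM07019), -0.15 (GM07348), 0.12 (GM10854) and -0.07 (GM12878). The lowest value was CLSPN at -0.59 in GM07348 and the highest RFC4 at 0.55 in GM10854 (adjusted p 0.605), and the smallest unadjusted p was that of RRM2 in GM07348 (-0.55, adjusted p 0.761). RRM2 in GM07348 had 8.03 and 7.74 at 0 h, 7.57 and 7.46 at 8 h, and 7.56 and 7.10 at 36 h. RFC4 in GM10854 had 6.69 and 6.50 at 0 h, 6.90 and 6.92 at 8 h, and 6.97 and 7.32 at 36 h. RRM2 and RFC4 had values of opposite sign in these lines, and neither passed the test. At an unadjusted p under 0.05 there were 2 genes in GM07348, 1 in GM10854 and 0 in GM07019 and GM12878, against 5.2%, 7.87%, 3.11% and 2.74% of probe sets; at an adjusted p under 0.05 limma called 0.118%, 0.0668%, 0.0514% and 0.0514%. Over the mean of the 4 lines limma called 0 genes (1.14% of probe sets) and found 0 at an unadjusted p under 0.05, where 14.7% of probe sets had one, and the median was -0.03.

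Whether the lines differed was tested on the changes themselves. Against the mean change of the 4 lymphoblastoid lines, 43 of the 45 genes fell further in AG09319 (2.4% of probe sets called lower), 12 in AG09309 (2.31%) and 10 in HepG2 (0.514%), and 0 were called in HL60 (0.457% of probe sets in either direction) or in K562 (0.0822%) by limma, with 0 at an unadjusted p under 0.05 in each (5.36% and 8.57% of probe sets had one). In HepG2 the 10 were MCM7, MCM4, UHRF1, MCM3, MCM2, CDT1, CDC25A, FEN1, MCM5 and GINS2, with MCM7 at -0.89 ± 0.17 (adjusted p 0.00315) and MCM4 at -1.13 ± 0.22 (adjusted p 0.00369). In AG09309 the smallest adjusted p was that of RFC3 (-1.08 ± 0.24, adjusted p 0.00428). With 8 h arrays in place of 0 h arrays, 0 of the 45 were called lower in AG09309 by limma (0.0308% of probe sets were) and 18 had an unadjusted p under 0.05 (6.91% of probe sets), with a median of -0.373, and without the 3 arrays that stood apart 4 were called (CDC6, DTL, RFC3 and MCM10). These comparisons share the lymphoblastoid arrays, and those for HepG2, AG09309, AG09319 and K562 were added after the data were seen. Leaving out the 3 deviating arrays gave a count of 31 in HepG2, which was 1 without HepG2 0 h replicate 1, 15 without HepG2 0 h replicate 2, 5 without HepG2 36 h replicate 1 and 1 without HepG2 36 h replicate 2, and the count in AG09309 was 0, 5, 5 and 3 without AG09309 0 h replicates 1 and 2 and 36 h replicates 1 and 2. HL60 and K562 did not pass the test against each other either, with 0 genes called by limma (0.185% of probe sets were), 0 at an unadjusted p under 0.05 (7.19% of probe sets) and a median difference of 0.04, against -0.15 over all probe sets.

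With the line as the replicate, the mean change over the 9 lines at 36 h was below 0 for all 45 genes, where 46.2% of all probe sets were below 0. The median was -0.32, with DTL lowest at -0.51 and E2F2 highest at -0.15, and limma called 0 of the 45, where 0.468% of probe sets were called. An unadjusted p under 0.05 was found for 38 of the 45, against 13.9% of probe sets, and the smallest adjusted p was that of POLD1 (-0.27 ± 0.07, adjusted p 0.12). Sample titles come in 2 styles, and the median was -0.113 over the 6 lines of one style and -0.719 over the 3 lines of the other, GM12878, AG09319 and HepG2, with no gene called in either. Without AG09319 the median was -0.171, and without AG09309 and the 3 arrays that stood apart it was -0.324. Against 8 h the mean change at 36 h had a median of -0.23 and was below 0 for all 45 genes, with 0 called by limma (0.37% of probe sets were) and 21 at an unadjusted p under 0.05 (19.6% of probe sets).

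At 8 h none of the 45 genes was called against 0 h by limma in any line or mean, where the share of all probe sets called was 1.53% in AG09309, 0.324% in AG09319, 0.236% in HL60, 0.00514% in GM07348, 0.0257% for the lymphoblastoid mean and 0% elsewhere. The medians were -0.41 in AG09319 (0.05 over all its probe sets), -0.16 in AG09309, 0.14 in HepG2, 0.09 in HL60, -0.17 in K562, and 0.14, -0.19, 0.04 and -0.11 in GM07019, GM07348, GM10854 and GM12878. In AG09319, 23 of the 45 had an unadjusted p under 0.05 (26.8% of probe sets did), and the value rested on 1 array: the median was -0.105 without AG09319 8 h replicate 2, and 31 genes were called without AG09319 8 h replicate 1. An unadjusted p under 0.05 was found for 3 genes in AG09309 (7.12% of probe sets), 2 in HepG2 (2.47%), 2 in GM07348 (4.41%), 1 in GM07019 (3.64%) and 0 in HL60 (4.52%), K562 (4.84%), GM10854 (1.09%) and GM12878 (1.19%). The mean over 9 lines had a median of -0.07, with 0 of 45 at an unadjusted p under 0.05 (2.79% of probe sets), and the lymphoblastoid mean likewise had 0 (3.17%).

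Before calcitriol the lines differed in the level of the 45 genes. K562 had the highest level for 27 genes and HL60 for 11, whereas AG09309, on the 0 h arrays that carried B cell markers, had the lowest for 20 and HepG2 for 17. The medians of the 45 levels were, from the lowest line, 6.54 in AG09309, 6.58 in HepG2, 6.83 in GM10854, 6.95 in GM07019, 7.05 in AG09319, 7.13 in GM07348, 7.26 in GM12878, 7.62 in HL60 and 7.86 in K562. The medians of single arrays overlapped for 5 of the 8 pairs of neighbours in this order: AG09309 and HepG2, HepG2 and GM10854, GM07019 and AG09319, AG09319 and GM07348, and HL60 and K562. They did not overlap for the other 3 pairs, with the smallest gaps between GM10854 (6.77 and 6.83) and GM07019 (6.86 and 7.08), and between GM07348 (7.04 and 7.19) and GM12878 (7.24 and 7.32). The widest ranges between lines were those of CDC45, with 6.07 in AG09309 and 9.35 in K562, and CLSPN, with 5.11 in HepG2 and 8.38 in K562, where the SD between arrays of a group was 0.14 and 0.38. E2F1 had the narrowest range, 0.67 log2 units, with HepG2 highest at 7.16. AG09319 was the highest line for CCNE2 (6.78), TK1 (8.37) and RRM2 (8.11).

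The 2 fibroblast lines were set against the 7 other lines in their 0 h levels. AG09309 entered with its 0 h arrays that carried B cell markers. CCNE1 was lower in the fibroblast lines (-0.80 ± 0.20, adjusted p 0.0368), and it was the 1 gene of 45 called by limma in either direction. Of all 19460 probe sets, 1535 were called in either direction, 1302 higher and 233 (1.2%) lower. The median difference over the 45 genes was -0.39, against -0.17 over all probe sets (-0.03 after centring each array on its median), and 7 genes had an unadjusted p under 0.05 (23.9% of probe sets did). CCNE1 was no longer called after centring or without GM07019, GM07348, GM10854, GM12878, HL60, AG09309 or AG09319, and 4 genes were called without HepG2. The share of all probe sets called without HepG2 is not given here.

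Other genes of the same pathways were read from lists that do not hold the 45. Of 31 other replication genes measured, 14 fell in AG09319, 5 in HepG2 and 4 in AG09309 at 36 h against 0 h. Of all probe sets, 2.71%, 0.797% and 2.26% were called lower in these lines. The medians of the list were -0.72, -0.42 and -0.23. In AG09319 the largest were the histone chaperone ASF1B (-1.82), the exonuclease EXO1 (-1.75), WDHD1 (-1.60), which couples polymerase alpha to the helicase, and the nuclease DNA2 (-1.59). In HepG2 they were topoisomerase II alpha (TOP2A, -1.16), RNASEH2A (-0.78), NASP (-0.66) and POLE3 (-0.64). In AG09309 they were EXO1 (-0.998), TOP2A (-0.96), TOPBP1 (-0.94) and DNA2 (-0.78). POLD4, the smallest subunit of polymerase delta, was the 1 gene of the list called higher (0.55), where 2.65% of probe sets were. Against 8 h, EXO1 was the 1 gene of the list called by limma in AG09309 (-1.03, adjusted p 0.0271), where 0.38% of probe sets were called. TOP2A had -0.83 there (adjusted p 0.237), TOPBP1 -0.65, DNA2 -0.55 and POLD4 0.25.

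Of 29 other G1/S control genes, 8 fell in AG09319, 3 in HepG2 and 5 in AG09309, against 2.71%, 0.797% and 2.26% of probe sets. The medians of the list were -0.28, -0.28 and -0.22. The proliferation marker MKI67 fell in each of the 3 lines, by 1.61 in AG09319, 1.16 in HepG2 and 0.94 in AG09309. Cyclin A2 (CCNA2) also fell in each, with -1.29 in AG09319, -1.13 in HepG2 and -1.06 in AG09309. Against 8 h no gene of this list was called by limma in AG09309, where 0.38% of probe sets were. MKI67 had -0.62 there (adjusted p 0.384) and CCNA2 -0.61 (adjusted p 0.322), and the median was 0.02. In AG09319, E2F7, a repressor of E2F targets, fell by 1.47, the pocket protein gene RBL1 by 1.40 and FBXO5, an inhibitor of the anaphase-promoting complex, by 1.31. SKP2, the F-box protein that marks p27 for destruction, fell by 1.18 in HepG2. Cyclin D2 (CCND2) had the largest change of the list in AG09309 (-3.34), in the comparison in which the B cell markers were also lower. At 8 h against 0 h it had already changed by -3.61, and at 36 h against 8 h it had 0.26 (adjusted p 0.642).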

How the data were processed

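The 54 samples were each hybridised to an Affymetrix Gene 1.0 ST array, 2 samples for each of 9 cell lines at 0, 8 and 36 h. An Exiqon kit gave the total RNA, which was turned into biotinylated cDNA, per the labels' protocols. The deposited values are on a log2 scale and come from RMA in Affymetrix Expression Console 1.0, per the submitters' processing notes. Nothing in the sources says whether all arrays were normalized together. Array medians were 4.98 to 5.31. Precision is limited by the number of arrays.

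Groups follow the cell line and time fields. The titles of GM10854 name another line, and the field was used. Of 33297 probe sets, 21214 are in the probe table and 19460 name 1 gene (1754 name several and were not named). No filter on low values was applied.

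The members and the lists were chosen with earlier results of these data known. Tests used limma 3.58.1 in R 4.3.3, two-sided, with Benjamini-Hochberg adjustment over 19460 probe sets and a threshold of 0.05. Single lines and differences between lines came from 1 fit of 27 groups (27 residual degrees of freedom). For means over lines, group means were fitted with line as a term (16 residual degrees of freedom for 9 lines, 6 for 4). For the 0 h levels the 9 line means were fitted. The fits were tested on simulated data. All 45 members could be named. Values in every array follow a rule for AG09319, the 2 genes of each role group with the largest mean change over 9 lines together with MCM2 to MCM7, E2F1, CCNE2 and PCNA. Such values in other lines were chosen after they were seen. From the other lists up to 4 called genes with the largest change are named. Plots used matplotlib 3.10.9.

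The alternatives were quantile normalization, centring on array medians, a mean level of at least 5, all probe sets, the mean of a gene's probe sets, leaving out 3 arrays that stood apart, a replicate block, fits of a line alone, leaving out each array or line, 8 h in place of 0 h arrays in the differences of AG09309, and arrays in place of group means.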

Additional observations from a re-analysis of the deposited data

Results flagged for a closer look

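In 27 sets of line values, changes of single genes at 36 h and medians of the 45 genes, a line far from the others was looked for. Chance gives that in about 1 set in 20, but these sets share the same lines and are not independent of each other. In 3 genes AG09319 stood apart from the other 8 lines: PRIM1 at -1.73, MCM5 at -1.56 and CDC45 at -1.50 on the log2 scale. These 3 genes are among those called lower in that line above, and are not a separate result.

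Differences between lines under the same contrast passed the test as follows. Against the mean change of the 4 lymphoblastoid lines, 43 genes differed in AG09319, 12 in AG09309 and 10 in HepG2. Between the fibroblast lines 13 genes differed, and of the genes given with values in every array these were DTL (1.25 as AG09309 minus AG09319), MCM3 (1.15), MCM4 (1.14), MCM7 (1.03), FEN1 (0.913), MCM5 (0.902) and CDC45 (0.855). The 0 h arrays of AG09309, which carry B cell markers, enter each of these differences for that line. With 8 h arrays in place of 0 h arrays, 3 genes differed between the fibroblast lines and 0 between AG09309 and the lymphoblastoid mean.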

How the results depend on the processing

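No value changed direction with a call. A tally was made of values of genes named in the text that were called in the main fits. Under another setting 1073 stayed called and 196 did not. With 1 array or line left out 471 stayed called and 261 did not. Values not called in the main fits are not in this tally. Some of those passed under another setting, as the counts below show. The cause of the differences below was not tested. With arrays in place of group means, which gives more residual degrees of freedom, the mean over 9 lines called 16 genes against 0 h and 1 against 8 h at 36 h, where the fit of group means called 0. Quantile normalization gave 34 genes in HepG2 against 0 h, where it called 403 of 19460 probe sets lower (155 in the main fit). It gave 5 in AG09309 against 8 h (55 probe sets lower, 17 in the main fit). Against the lymphoblastoid mean it gave 27 in HepG2 (270 probe sets lower, 100 in the main fit). In the 0 h levels it gave 2 (1557 probe sets called in either direction, 1535 in the main fit). Centring on array medians gave 7 in AG09309 against 0 h (347 probe sets lower, 439 in the main fit). Against the lymphoblastoid mean it gave 6 in HepG2 (97 probe sets lower, 100 in the main fit). In AG09309 it gave 4 there (366 probe sets lower, 450 in the main fit). In the 0 h levels it gave 0 (1696 probe sets called in either direction). Testing all probe sets gave 6 in HepG2 against the lymphoblastoid mean. For settings other than these scalings, the share of all probe sets called is not given in this section.

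Without the 3 arrays that stood apart the counts were 36 in HepG2 and 26 in AG09309 at 36 h against 0 h, 1 in AG09309 at 8 h against 0 h, 8 in AG09309 at 36 h against 8 h, 31 in HepG2 and 21 in AG09309 against the lymphoblastoid mean, and 20 between the fibroblast lines. The medians then were, at 36 h against 0 h, -0.255 in K562 and -0.931 in HepG2, at 8 h against 0 h, -0.0693 in HepG2 and -0.105 in AG09319, and at 36 h against 8 h, -0.0684 in K562 and -1.24 in AG09319. They were -0.942 in HepG2 against the lymphoblastoid mean and 0.268 for HL60 minus K562. With 8 h arrays in place of 0 h arrays, AG09309 had 0 genes against the lymphoblastoid mean (median -0.373) and 3 against AG09319 (median 0.531), and without the 3 arrays that stood apart it had 4 against the lymphoblastoid mean (median -0.373). Fits of the 6 arrays of a line called 0 genes in HepG2 and AG09319 at 36 h against either earlier time, with fewer residual degrees of freedom, and 1 in AG09309 at 36 h against 8 h.

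Leaving out 1 array gave 2 to 23 genes in HepG2, 1 to 8 in AG09309 and 37 to 43 in AG09319 at 36 h against 0 h, 0 to 31 in AG09319 at 8 h, 0 to 1 in K562 and 8 to 21 in HepG2 at 36 h against 8 h, 1 to 15 in HepG2 and 0 to 14 in AG09309 against the lymphoblastoid mean, and 3 to 17 between the fibroblast lines. The medians ran from -0.255 to 0.1 in K562 and -0.931 to -0.512 in HepG2 at 36 h against 0 h, -0.0693 to 0.317 in HepG2 and -0.678 to -0.105 in AG09319 at 8 h against 0 h, and -0.0684 to 0.351 in K562 and -1.24 to -0.658 in AG09319 at 36 h against 8 h. They ran from -0.942 to -0.487 in HepG2 against the lymphoblastoid mean and from -0.155 to 0.268 for HL60 minus K562. Leaving out 1 line gave 0 to 4 genes and medians of -0.637 to -0.193 for the 0 h levels.

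The labels do not say that a replicate number marks a shared culture. The deviations of same-numbered arrays correlated above 0.1 in 14 of 27 pairs of groups, and ran from -0.414 to 0.585. All 3 correlations were above 0.1 within K562, GM07348 and GM12878 but not within the other 6 lines, and the main results carry no block. With the replicate block 0 genes were called in K562, GM07348 and GM12878 in any of their 3 comparisons of times, as without it. The replicate block gave 23 genes in HepG2, 18 in AG09309 and 43 in AG09319 at 36 h against 0 h, and 1 in AG09309 at 36 h against 8 h.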
